A study of Mus musculus with 2 samples.

Results

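Members of the neuronal basic helix-loop-helix (bHLH) transcription factor family and their partners, 10 genes, were examined for accessible chromatin in mouse frontal cortex: Neurog1, Neurog2, Neurod1, Neurod2, Neurod6, Bhlhe22, Tcf3, Tcf4, Tcf12 and Id2. All 10 were found by symbol among the 21911 protein-coding genes of GENCODE vM21 on mm10. For each gene the gene body and 50 kb on each side were searched, 1662 kb in all. An element within 1 kb of any annotated transcription start site (TSS) of the gene was its promoter. An element further than 1 kb from every TSS of any gene was distal. Elements within 1 kb of a TSS of another gene only were in neither class. Distances are to the nearest TSS of the gene in the direction of transcription, negative before it.

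DNase-seq maps open chromatin by sequencing the ends that the enzyme DNase I leaves in nuclei. The series has 1 group with 2 biological replicates, both frontal cortex of male B6CASTF1/J mice aged 10 days. A label note gives 3 males per sample without saying whether they were pooled, and both samples carry 1 donor entry. Separate animals are thus not stated, and differences between the libraries measure a spread that may be technical. There was no other age, tissue or treatment, so no test between conditions was possible.

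Factors of this family bind E-boxes, hexamers of the form CANNTG, as dimers of a tissue-restricted and a broadly expressed subunit. Neurogenins start neuronal differentiation in progenitors of the dorsal forebrain, and NeuroD factors and Bhlhe22 act later in postmitotic neurons. E-proteins, encoded by Tcf3, Tcf4 and Tcf12, are the broadly expressed partners. Id2 lacks a DNA-binding region and sequesters E-proteins in inactive dimers.

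Peaks came from 2 runs of the submitters' processing, one from filtered alignments (the first run) and one from sequencing reads (the read-derived lists). The first run's stricter deposited list held 39608 peaks in replicate 1 and 45915 in replicate 2, and the smaller read-derived list 50261 and 54759. These are the lists meant below unless the looser or larger ones are named. Replicate 2 was 1.64 times as deep as replicate 1 by the steps of its densities. In the first run the forebrain marker genes Emx1 and Emx2 carried promoter peaks in both libraries and Tbr1 in replicate 2 only, while the read-derived lists had all 3 in both. None of 6 hindbrain and spinal cord genes had one in either run. All 5 pan-neuronal genes had one in both libraries of the first run, as did Sox9 and Slc1a3 of 5 astrocyte genes, Olig1 and Olig2 of 5 oligodendrocyte genes, Cx3cr1 of 5 microglial genes and Flt1 of 5 endothelial genes. In both read-derived lists it was all 5 pan-neuronal genes, 3 astrocyte genes (Sox9, Aldh1l1 and Gfap), Olig1 and Olig2, 0 microglial genes and Flt1. Peaks at genes of several cell types were thus present, and a weaker peak in more cells and a stronger peak in fewer cells cannot be told apart.

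The promoter sequences shown are the 150 bases before the annotated start of Neurod2 (chr11:98329649-98329798, minus strand) and Neurog2 (chr3:127632985-127633134, plus strand). They are shown in the direction of transcription from GRCm38.p6, with every CANNTG in capitals, because Neurod2 carries the E-box form CATATG close to the start and Neurog2 carries no E-box there.
Neurod2: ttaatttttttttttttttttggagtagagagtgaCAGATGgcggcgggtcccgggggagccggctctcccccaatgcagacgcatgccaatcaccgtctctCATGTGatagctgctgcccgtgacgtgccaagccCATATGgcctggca
Neurog2: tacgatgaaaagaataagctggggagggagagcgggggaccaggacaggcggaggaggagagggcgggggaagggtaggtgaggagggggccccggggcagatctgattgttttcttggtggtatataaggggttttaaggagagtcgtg

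The distal sequences shown are the central 151 bases of the shared distal peak with the highest mean percentile of each of 5 genes, on the plus strand, again with CANNTG in capitals. Neurod2 (chr11:98342707-98342857) and Neurog2 (chr3:127634222-127634372, coding exon) are shown for a match to the core motif of the insulator protein CTCF. Neurog1 (chr13:56226275-56226425) is shown for E-boxes outside the neuronal forms. Tcf12 (chr9:72133155-72133305) and Id2 (chr12:25098845-25098995) are shown for the neuronal form CAGCTG.
Neurod2: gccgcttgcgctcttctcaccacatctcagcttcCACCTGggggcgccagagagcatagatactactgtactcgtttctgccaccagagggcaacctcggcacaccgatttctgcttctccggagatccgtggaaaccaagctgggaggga
Neurog2: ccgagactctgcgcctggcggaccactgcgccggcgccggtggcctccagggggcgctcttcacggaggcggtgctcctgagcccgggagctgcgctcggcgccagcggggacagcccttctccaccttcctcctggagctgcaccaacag
Neurog1: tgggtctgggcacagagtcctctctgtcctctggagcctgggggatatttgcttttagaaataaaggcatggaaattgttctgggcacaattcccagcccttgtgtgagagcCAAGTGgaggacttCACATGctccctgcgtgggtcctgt
Tcf12: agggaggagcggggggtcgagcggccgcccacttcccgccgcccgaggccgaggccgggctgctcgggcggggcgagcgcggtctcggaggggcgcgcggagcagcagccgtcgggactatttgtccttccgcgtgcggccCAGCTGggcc
Id2: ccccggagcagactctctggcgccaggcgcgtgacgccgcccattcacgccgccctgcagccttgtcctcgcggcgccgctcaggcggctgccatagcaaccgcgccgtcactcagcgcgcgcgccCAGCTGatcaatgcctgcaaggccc

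By the density of the strongest peak, promoters of the E-protein genes and Id2 ranked highest and those of the NeuroD genes intermediate. Those of the neurogenins and Bhlhe22 were weak or not called. The share of promoter bases passing a false discovery rate, given with Bhlhe22 below, did not keep this order. In the first run, promoters of 6 of the 10 genes held a peak in each library (Neurod1, Neurod2, Tcf3, Tcf4, Tcf12 and Id2). Over all protein-coding genes the share was 54.9%, so the members' count was near the background. The read-derived lists added Neurod6, giving 7 of 10 against 57.6%. The looser first-run lists gave 8 of 10 against 61.0%, and the larger read-derived lists 9 of 10 against 60.3%. These counts require a promoter peak in each library, not an overlap of the peaks. Hotspots, the wider domains of raised cleavage, covered a TSS of 9 of 10 genes in both libraries, against 59.0% of all genes. The exception was Neurog1, with no hotspot over its TSS in either library.

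**Figure D1:**
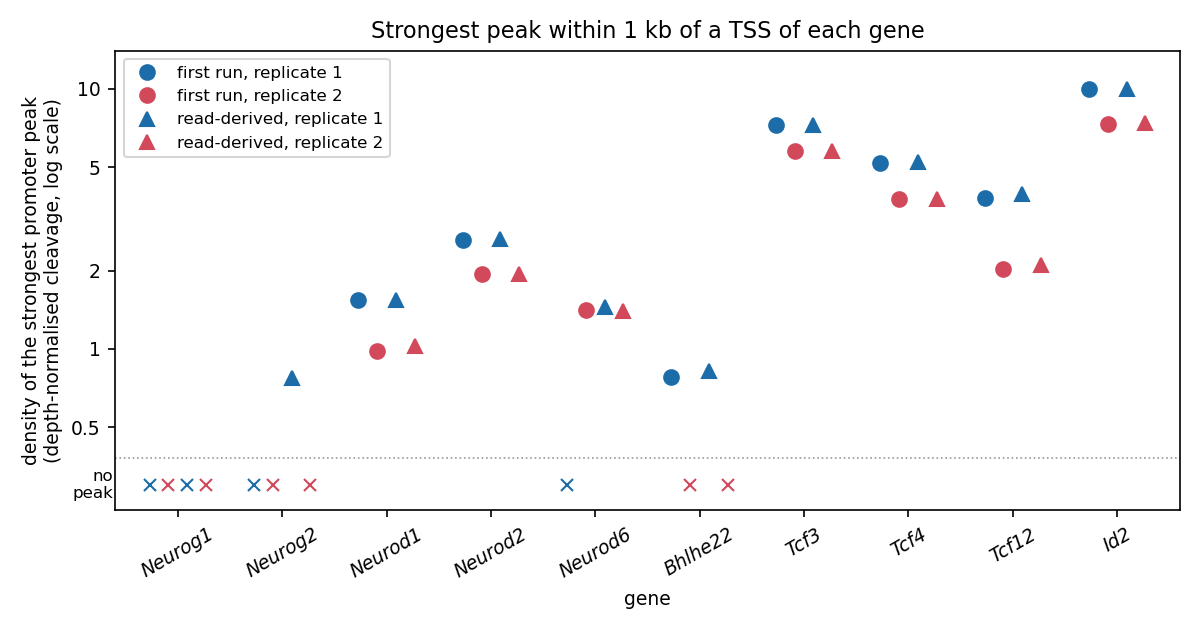
Depth-normalised cleavage density of the strongest promoter peak (vertical axis, log scale) for each gene (horizontal axis), by library (colour) and run (circle, first run; triangle, read-derived); crosses mark no peak. Id2 is highest at 9.96 and 7.34 in the first run, and Neurog1 has no promoter peak in any of the 4 lists shown.

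Neurog1 (chr13:56250478-56252163, minus strand) and Neurog2 (chr3:127633135-127635631, plus strand) encode the neurogenins. Neurog1 had no promoter peak in either run at the stricter level. In the looser first-run list it had a single promoter peak, in replicate 2 only, with a density of 0.553, the 39.0th percentile of that list. A weak hotspot lay at −0.199 kb in replicate 1, with a highest −log10 false discovery rate (FDR) of 1.76. Its counterpart in replicate 2 lay at −0.293 kb and reached 2.58.

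Neurog2 had no promoter peak in the stricter first-run lists and 1 in the smaller read-derived list of replicate 1, with a density of 0.770 (15.2nd percentile). The looser first-run lists held one in each library, at 0.758 in replicate 1 and 0.369 in replicate 2, but these did not overlap. The larger read-derived lists held overlapping promoter peaks in both libraries, where the strongest reached 0.770 and 0.428. Hotspots lay over its TSS in both libraries, with −log10 FDR 3.16 in replicate 1 and 2.47 in replicate 2, the lowest of the 9 genes with such a hotspot in each library. The stronger element of Neurog2 lay inside the gene, 1.16 kb past the TSS in the coding exon, just outside the promoter limit. Its density was 1.47 in replicate 1 and 0.810 in replicate 2. No base of either neurogenin promoter reached an FDR of 0.001 in either library.

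Neurod1 (chr2:79452521-79456751, minus strand), Neurod2 (chr11:98325415-98329648, minus strand) and Neurod6 (chr6:55677822-55681263, minus strand) encode NeuroD factors. Neurod2, which acts in maturing cortical neurons, had the strongest promoter peak of the 3, with a density of 2.63 in replicate 1 and 1.94 in replicate 2. That peak was centred at −0.001 kb, next to the annotated TSS, at the 73.3rd and 77.7th percentiles of the lists. Neurod1 had 1.54 and 0.981 at −0.101 kb, and in replicate 2 this was below the 1.41 of Neurod6. The TSS nearest to the Neurod1 peak was that of Cerkl, 67 bp away, so the peak lies in a promoter region shared with that gene.

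Neurod6 is a marker of cortical excitatory neurons. Its promoter peak was listed in the first run only for replicate 2, with a density of 1.41, but the looser first-run list held it in replicate 1 at 1.41 as well. In the read-derived lists it was present in both libraries, at 1.44 and 1.40. The hotspot over its TSS reached a −log10 FDR of 9.16 in replicate 1 and 14.4 in replicate 2. Within 1 kb of the TSS, 40 bases in replicate 1 and 328 in replicate 2 passed an FDR of 0.001. The libraries thus differed at Neurod6 in whether the stricter first-run list held the peak, while the densities were nearly equal.

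Bhlhe22 (chr3:18054174-18057517, plus strand), an Olig-related repressor of cortical projection neurons, differed between the libraries in the opposite direction from depth. Replicate 1, the shallower library, had 3 promoter and 3 distal peaks in each run. Replicate 2 had none in the first run and a single distal peak in the read-derived list, at a density of 0.752. The first-run peaks of replicate 1 ranged from 0.650 to 0.812. Bases with FDR up to 0.001 numbered 503 in the replicate 1 promoter and 0 in replicate 2, and footprints over the whole span numbered 21 and 1. Hotspots over the TSS were present in both, 1217 bp wide with −log10 FDR 4.57 in replicate 1 and 931 bp wide with 2.54 in replicate 2. In the larger read-derived lists both libraries had promoter peaks, the strongest at 0.824 and 0.467. What made the libraries differ at this gene was not tested. The 503 bases were 25.1% of the Bhlhe22 promoter, the highest such share of the 10 genes in replicate 1. Id2 followed at 23.7% and was highest in replicate 2 at 29.3%. Neurod1, at 12.7% and 18.8%, exceeded Tcf3 (10.0% and 9.18%) and Tcf4 (5.47% and 6.02%) in both libraries. Tcf12 exceeded Neurod1 in replicate 1 only, at 13.6%, against 7.97% in replicate 2.

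The E-protein genes had promoter peaks in both libraries and both runs. Tcf3 (chr10:80409514-80433647, minus strand) reached 7.25 in replicate 1 and 5.77 in replicate 2 at −0.453 kb, at the 92.6th and 95.4th percentiles. Tcf4 (chr18:69343356-69689079, plus strand) reached 5.19 and 3.78. Tcf12 (chr9:71842688-72111871, minus strand) reached 3.80 and 2.03. GENCODE annotates 11, 58 and 20 start sites for these 3 genes, so they have more promoter sequence than the single-TSS genes.

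The strongest Tcf4 promoter peak was not at the first TSS but at an internal one. It was centred at −0.012 kb from a start site deep in the gene, as the plot of Tcf4 peaks shows, in sequence annotated as UTR. A second group of promoter peaks lay at the first start sites, with 3.36 in replicate 1 and 2.57 in replicate 2 for the strongest. Both sites thus ranked in the same order in both libraries.

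Id2 (chr12:25093799-25097140, minus strand) had the strongest promoter peak of all 10 genes, at 9.96 in replicate 1 and 7.34 in replicate 2, the 96.2nd and 97.4th percentiles. The hotspot over its TSS reached a −log10 FDR of 84.1 and 71.8, against 34.8 and 23.4 for Tcf12. All 6 shared promoter peaks named here were denser in replicate 1 than in replicate 2. The same held for the whole lists, with a median density of 1.47 against 1.01, so the order of libraries was not particular to these genes. The order of these 6 genes, Id2, Tcf3, Tcf4, Tcf12, Neurod2 and Neurod1, was the same in both libraries and both runs. Tcf12 and Neurod2 were close in replicate 2 of the first run, at 2.03 and 1.94. Neurod6, not among the 6, came after Neurod1 in the read-derived list of replicate 1, at 1.44 against 1.54. In that of replicate 2 Neurod6 came before Neurod1, at 1.40 against 1.02.

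Distal elements were numerous around these genes next to all genes, though not next to other bHLH genes. Neurog1 had the most shared ones for its span in the first run and the smaller read-derived lists. In the larger read-derived lists Neurod2 had more, at 7.68 per 100 kb against 6.88. In the first run 9 of 10 genes had at least 1 distal peak shared by both libraries, against 52.5% of all genes. Bhlhe22 was the exception. The read-derived lists gave the same 9 of 10, against 60.9%. In the looser and the larger read-derived lists all 10 had one, against 71.7% and 68.7%. The 10 genes held 25 shared distal peaks in the first run and 40 in the read-derived lists, counted in replicate 1. The median was 1.24 per 100 kb against 0.449 over all genes in the first run, and 1.78 against 0.806 in the read-derived lists. Among the gene lists described below, the medians in the 2 runs were 1.46 and 2.84 for other neural bHLH and Id genes. They were 1.36 and 1.85 for bHLH genes of other tissues, so both of these lists lay above the members. Partners and corepressors (0.857 and 1.61) and textbook targets (0.446 and 0.937) lay below. These medians describe the genes and were not tested.

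**Figure D2:**
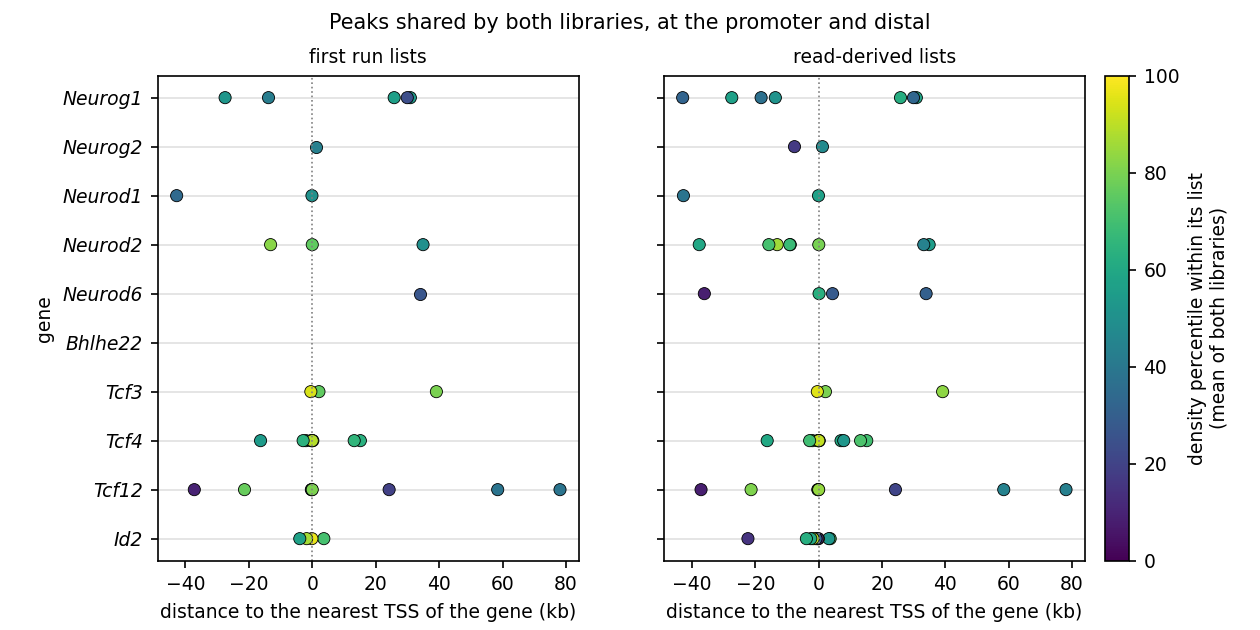
Position of each promoter or distal peak of replicate 1 shared with replicate 2, relative to the nearest TSS of its gene (horizontal axis, kb, negative before the start). The first run is on the left and the read-derived lists on the right. Shared peaks at promoters of other genes are left out. Colour gives the density percentile within its list, averaged over the libraries. Neurog1 has 5 shared distal peaks and no promoter peak on the left, and Bhlhe22 has no point in either panel.

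Around Neurog1, the 5 shared distal peaks of the first run came to 4.92 per 100 kb, more than in 99.3% of all protein-coding genes. They lay 30.9, 29.9 and 25.8 kb past the TSS and at −13.8 and −27.5 kb. The strongest by mean percentile, at +25.8 kb in an intron of 4930550C17Rik, had densities of 1.86 in replicate 1 and 1.03 in replicate 2 and held 3 footprints found in both. The read-derived lists held 7 such peaks counted in replicate 1, adding sites at −18.2 and −43.0 kb. The promoter without a stricter-list peak thus lay among shared distal peaks, and the nearest TSS to 4 of the 5 first-run peaks belonged to another gene. Which gene any of them acts on was not measured.

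Neurog2 had 1 shared distal peak in the first run, the coding-exon element, and a second in the read-derived lists at −7.67 kb, with 0.877 and 0.538. Neurod1 had 1 in both runs, at −42.7 kb, with 1.38 and 0.639 in the first run. Neurod6 had 1 in the first run, 33.9 kb past its TSS, at 1.01 and 0.692. In the read-derived lists Neurod6 had 3, including one 4.34 kb past the TSS at 1.13 and 0.590 that was part of the widest hotspot of its span, 1542 bp in replicate 1.

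At Neurod2 the runs listed different numbers of distal peaks. The first run listed 2 distal peaks in replicate 1 and 7 in replicate 2, and the read-derived lists 7 in each. The strongest lay at −13.1 kb, between Neurod2 and Ppp1r1b, with first-run densities of 3.96 and 2.33 and 4 footprints found in both libraries. Of the 7 read-derived peaks of replicate 1, the 5 without a first-run counterpart had densities from 1.08 to 1.83. The first run nevertheless listed peaks of replicate 1 as low as 0.249 near Neurog1. Shared distal peaks at Neurod2 came to 1.92 per 100 kb in the first run and 6.72 in the read-derived lists, more than in 99.1% of genes in the latter. The read-derived value counts 7 shared peaks in replicate 1, of which those at −8.99 and −9.15 kb adjoin and overlap the same replicate 2 peak. Counted in replicate 2 the shared peaks numbered 6. Why the first run left the 5 peaks out of replicate 1 was not tested.

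Tcf3 had 2 shared distal peaks in each run, at 39.1 kb past the nearest Tcf3 TSS (3.62 and 2.04) and in an intron 2.11 kb past one (2.49 and 2.07 in the first run). Tcf12 had 5 in each run. Its strongest by mean percentile, at −21.4 kb, had 3.30 in replicate 1 and 1.74 in replicate 2, and its weakest, in an intron, 0.628 and 0.514. Id2 had 3 shared distal peaks in the first run and 6 in the read-derived lists. The strongest distal peak of all 10 genes was that of Id2 at −1.78 kb, with 5.30 and 2.65 and 6 shared footprints. It lay in the widest hotspot of the Id2 span, 2380 bp in replicate 2.

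**Figure D3:**
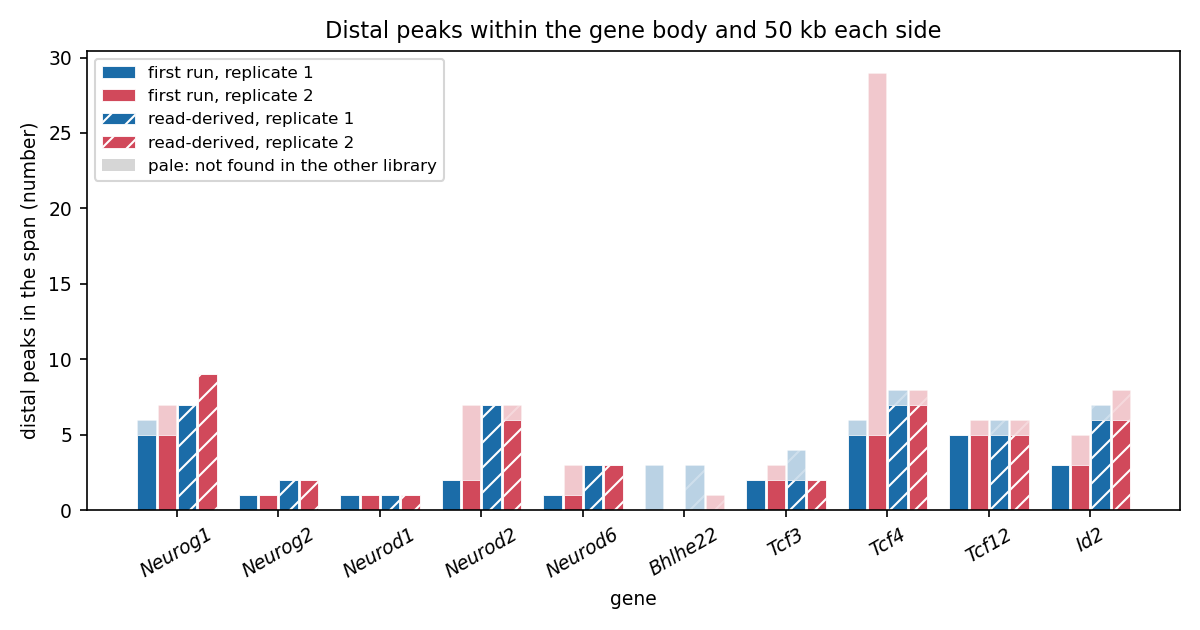
Number of distal peaks in the span of each gene (vertical axis), by library (colour) and run (plain, first run; hatched, read-derived); the pale part was not found in the other library of the same run. Tcf4 in replicate 2 of the first run stands at 29, against 6, 8 and 8 in the other 3 lists.

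Tcf4 had 5 shared distal peaks in the first run and 7 in the read-derived lists, all within its introns. The strongest by mean percentile lay at −1.99 kb from a Tcf4 TSS, with 2.07 in replicate 1 and 1.53 in replicate 2. The first run listed 6 distal peaks in replicate 1 and 29 in replicate 2. Of the 29, 21 lay in a stretch of 24.2 kb, from 21.6 to 45.7 kb past the first TSS. That stretch was chosen after the values were seen, as the unshared distal peaks of replicate 2 that came before the first shared one. The 21 had densities from 0.112 to 0.408, and none ranked above the 6.44th percentile of its list.

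Elements in the stretch were found in lists of replicate 2 made from filtered alignments. The first run of replicate 1 had 0 peaks there, the read-derived lists had 0 in both libraries, and hotspots numbered 0 in both. Footprints of the lists with a p-value column numbered 0 in replicate 1 and 21 in replicate 2, and both footprint lists of replicate 2 that hold positions alone had 0. Bases with FDR up to 0.001 numbered 0 in replicate 1 and 5479 of 24154 in replicate 2. Over all 10 genes, 62 distal peaks of replicate 2 in the first run became 41 without the stretch, against 47 in the read-derived list. What produced the stretch was not tested.

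**Figure D4:**
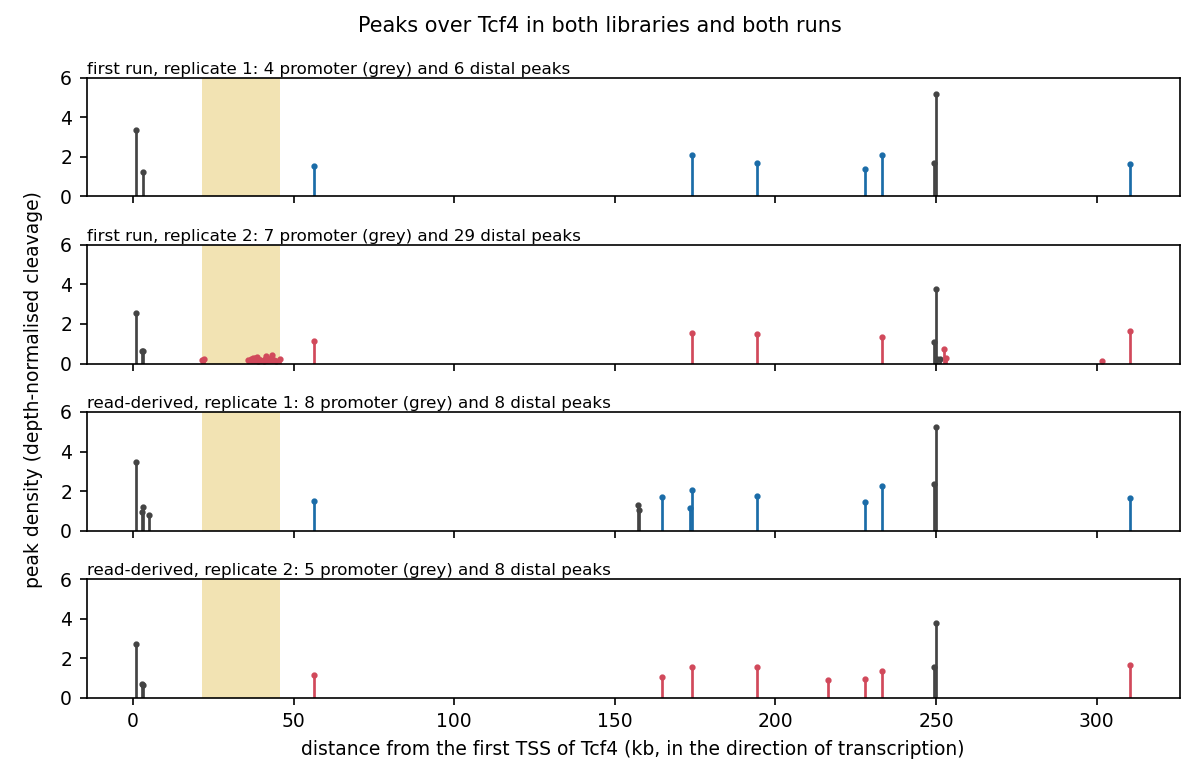
Density of each peak over Tcf4 (vertical axis) by distance from its first TSS (horizontal axis, kb) in both libraries and runs; grey lines are promoter peaks, coloured lines distal peaks, and the shaded band is the stretch with 21 peaks in replicate 2 of the first run. Outside the band, the tallest promoter peak, at 5.19 in replicate 1 and 3.78 in replicate 2 of the first run, is seen in all 4 panels.

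Agreement between libraries was then counted over all 10 genes. In the first run, 83.3% of the 30 distal peaks of replicate 1 were found in replicate 2 (95% Wilson interval 66.4 to 92.7, counting error only), against 76.2% of all distal peaks. Of the 62 distal peaks of replicate 2, 40.3% (29.0 to 52.7) were found in replicate 1, against 59.9% of all. Without the 21 peaks of the Tcf4 stretch it was 25 of 41, or 61.0%. The 21 were picked as unshared peaks, so the share had to rise. It cannot be set against the share of all, from which no unshared peaks were taken. In the read-derived lists the shares were 83.3% of 48 (70.4 to 91.3) and 87.2% of 47 (74.8 to 94.0), against 80.4% and 69.5% of all distal peaks.

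The runs were also set against each other within a library. Of the first-run distal peaks, 29 of 30 in replicate 1 and 37 of 62 in replicate 2 overlapped a read-derived peak, or 96.7% and 59.7%, against 93.9% and 87.8% over all distal peaks. Tcf4 held 24 of the 25 that did not overlap one in replicate 2. Of the read-derived distal peaks, 60.4% of 48 in replicate 1 and 78.7% of 47 in replicate 2 overlapped a first-run peak, against 69.1% and 71.1% of all.

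All 25 shared distal peaks of the first run overlapped a peak in each of the 8 lists, the 4 lists of each library, as did 95.6% of all 14713 such peaks of the genome. Of the 40 shared distal peaks of the read-derived lists, 25 did, or 62.5%, against 67.2% of all. A footprint found in both libraries lay in 21 of the 25 (84.0%) and 32 of the 40 (80%), against 78.9% and 75.3% of all, so these shares were near the background. By position 15 were intergenic, 9 intronic and 1 in a coding exon, and 9 lay inside the gene itself. The nearest TSS belonged to the gene for 11 of 25. Median density was 1.64 in replicate 1 and 1.19 in replicate 2, against 1.31 and 1.02 for all shared distal peaks. The unshared ones of replicate 2 had a median of 0.270, against 0.632 over all, with the Tcf4 stretch making up 21 of 37.

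Footprints, stretches of a few bases with less cleavage than their surroundings, numbered 286 in replicate 1 and 354 in replicate 2 over the spans. Of these, 52.1% (46.3 to 57.8) and 42.1% (37.1 to 47.3) recurred in the other library, near the 55.6% and 40.7% of all footprints. These totals include footprints at promoters of other genes in the spans. The Tcf3 span had 41 of 57 replicate 1 footprints found again, with 9 of 12 at the Tcf3 promoter and 7 of 10 distal. The others lay at promoters of other genes. Id2 had 22 of 33, all at its promoter or distal. Bhlhe22 had 0 of 21. Promoter footprints found in both numbered 9 for Tcf3, 14 for Tcf4, 9 for Tcf12 and 8 for Id2, counted in replicate 1. They numbered 3 for Neurod1, 2 for Neurod6, 1 for Neurod2 and 0 for Neurog1, Neurog2 and Bhlhe22.

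E-boxes were counted on both strands in the 151 bases around each shared peak, taken from replicate 1 unless stated. The neuronal forms were CAGATG in the first place, then CAGCTG as the second and CATATG as the third, which neuronal bHLH factors prefer and which are all cases of CANNTG. In the first run, 8 of 25 shared distal windows held a neuronal form, 32.0% (17.2 to 51.6), against 38.4% of 14713 shared distal windows of the genome. In the read-derived lists it was 10 of 40, 25% (14.2 to 40.2), against 37.5%. CANNTG itself was in 18 of 25 windows, 72.0%, against 66.8%, at a median GC content of 54.3% in both sets. Around replicate 2 peaks the neuronal forms were in 6 of 25 windows, 24.0% (11.5 to 43.4), against 38.1%, and in 9 of 41 read-derived ones, 22.0% (12 to 36.7), against 37.2%. At the main span the share in the members' distal elements was thus the lower in both runs. The intervals covered the genome's value except in the read-derived windows of replicate 2. This order did not hold when the span was cut to 10 kb either side. There 6 of 12 first-run windows held a neuronal form, or 50%, above the 38.4% of the genome. That genome value was not limited to windows within 10 kb of a gene, so the windows compared are not alike.

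The 8 windows belonged to Tcf4 (3), Tcf12 (2), Id2 (2) and Neurog1 (1). CAGCTG was in 5 of 25, among them the Tcf12 and Id2 windows printed above, and CAGATG in 3, while CATATG was in 0 of 25. Among shared distal footprints with 3 bp added on each side, 3 of 66 in replicate 1 and 3 of 67 in replicate 2 held a neuronal form, 4.55% and 4.48%, against 6.48% and 6.82% of all. A match describes letters and not binding.

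Promoter windows differed in the form they held. Around replicate 1 peaks, CATATG was in 3 of the 11 shared promoter windows of the members in the first run, at Neurod1, Neurod2 and Tcf4, or 27.3% (9.75 to 56.6). It was in 0.617% of 17009 shared promoter windows over all genes. In the read-derived lists it was in 3 of 15, or 20% (7.05 to 45.2), against 0.719%. Around replicate 2 peaks it was in 2 of 11, at Neurod2 and Tcf4 but not Neurod1, or 18.2% (5.14 to 47.7), against 0.685%, and in 3 of 16 read-derived windows, 18.8% (6.59 to 43.0), against 0.803%. By sequence alone it began at base −127 from the TSS of Neurod1 and at −14 from that of Neurod2, as the printed Neurod2 sequence shows. Any neuronal form was in 4 of 11 replicate 1 windows, 36.4% (15.2 to 64.6), against 15.0%, with CAGATG at Tcf3 as the fourth, and CAGCTG was in 0 of 11. Of the 11 windows around replicate 2 peaks, 3 held a neuronal form, 27.3%, against 15.2%. These counts were made after the forms had been seen at single genes, the 11 windows come from 6 genes, and no test was made.

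The CTCF core motif was also counted after its letters were noticed. It was in 4 of 25 shared distal windows, 16.0% (6.40 to 34.7), against 13.3% of all, so its share was near the background. The 4 were the Neurod2 window at −13.1 kb, the Neurog2 coding-exon window, a Tcf4 intron and a Tcf12 window 78.1 kb past the nearest TSS. In the Neurod2 window printed above the match starts at base 81 and reads ccaccagagggc, and in the Neurog2 window it starts at base 44 and reads cctccagggggc. In the read-derived lists the motif was in 8 of 40 windows, 20% (10.5 to 34.8), against 12.6% of all, and 3 of the 8 lay upstream of Neurod2, at −8.99, −13.1 and −15.8 kb.

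Other genes of the pathway were taken from lists of textbook family members. Among 22 other neural bHLH and Id genes, 13 carried a promoter peak in both first-run libraries, or 14 in the read-derived lists. Those with the most shared distal peaks were Id1 and Id3, inhibitors like Id2, with 7 each, and Hes5, a Notch target that represses proneural genes, and Olig1, an oligodendrocyte lineage factor, with 5 each. Neurog3, Neurod4, Atoh1, Ptf1a, Nhlh1, Nhlh2, Bhlhe23 and Olig3 had no promoter peak in either library. Of 19 bHLH genes of other tissues, 2 carried such a peak in both first-run libraries (Msc and Mesp2) and 1 in both read-derived lists (Mesp2), and Lyl1 had the most shared distal peaks at 3. At least 1 shared distal peak was found for 18 of the 22 and 11 of the 19 genes in the first run. In the read-derived lists it was 20 and 12.

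All 9 genes for partners and corepressors of bHLH complexes (Cbfa2t2, Cbfa2t3, Runx1t1, Ldb1, Ldb2, Lmo1, Lmo2, Lmo3 and Lmo4) carried one at the promoter in both libraries and each run. Cbfa2t3 had the most shared distal peaks, at 6 in the first run. Of 12 textbook targets of proneural and NeuroD factors, 7 had one in both libraries in the first run and 9 in the read-derived lists. Nhlh1, Eomes and Neurod4 had none in either run. A shared distal peak was found for 6 of the 12 in the first run and 10 in the read-derived lists, with Dll3 and Eomes at 0 in both. Tbr1 in replicate 2 and Insm1 in replicate 1 had a promoter peak in a single first-run library and in both read-derived ones. The promoter counts stand beside the 54.9% and 57.6% of all genes given above. Those of a shared distal peak stand beside 52.5% in the first run and 60.9% in the read-derived lists. No count was tested.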

How the data were processed

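DNase-seq lists of 2 libraries in 1 group were used, each made per library. In the deposited peak lists each peak has a cleavage density, a depth-normalised signal made by the authors. Hotspots carry the highest −log10 FDR, per the file headers. Footprint lists carry 0.01 in every line of the deposited p-value column, a threshold, and per-base tracks an FDR as deposited p-value for bases under 0.05. A further 2 footprint lists of replicate 2 were deposited by the authors as positions with no other measurement. The text lists deposited with the samples give filtered alignments as origin of the first run and reads as origin of the second. The callers, and the thresholds they ran at, are not given in sources used here. Absolute depth is unknown. Of the first run, the list whose peaks all held a base at FDR 0.001 was used, and its density and percentiles are the authors' values ranked here.

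Peaks were placed by midpoint, and shared means an overlap of at least 1 bp. All genes of the set were named, with, for each, the strongest shared promoter and distal peak by mean percentile and the widest hotspot, and for other lists the 3 genes with most shared distal peaks and all genes in counts up to 5. Other genes named were chosen after their values were seen. A few of the selected genes and sequences are not reported here. Members and lists were chosen with earlier results of these data known. The E-box count in promoters and the CTCF count were added later. Reads of an F1 cross mapped to 1 reference can favour an allele, which was not examined. Python 3.11.15, pandas 2.3.3 and bedtools 2.31.1 were used, the counting was tested on simulated data, and sequence came from GRCm38.p6. Alternatives covered list thresholds, run, list size, promoter window, span, overlap, motif window and each library alone.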

Additional observations from a re-analysis of the deposited data

How the results depend on the processing

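No paired analysis was possible because the series has 1 group, so no groups share replicate numbers. Of the 10 genes, 6 had promoter peaks in each library, a number that ranged from 5 to 9 over all alternatives, and that of hotspots over a TSS was 9 in each. Genes with a shared distal peak numbered 9 and ranged from 7 to 10, except for 5 when the span was cut to 10 kb either side. The 25 shared distal peaks became 42 in the looser lists, 40 in the smaller read-derived lists, 49 in the larger ones, and 12 with 10 kb on each side. Without replicate 1 or 2 the distal peaks of the remaining library numbered 62 or 30. The mean share of footprints found in the other library was 47.1%, 34.8% with 50% reciprocal overlap and 55.4% for footprints in main peaks. The share of shared distal peaks with a neuronal E-box was 32.0%, and 21.0% to 30% in a single library. It was 16.0% with 50 bp and 64.0% with 150 bp on each side, where the window itself sets the chance of a match. When the span was cut to 10 kb either side it rose to 50%, or 6 of 12. After the data were seen, the 62 distal peaks of replicate 2 were recounted without the Tcf4 stretch (41) and in the read-derived list (47), and motif windows were also placed on replicate 2 peaks. With 2 libraries and unknown absolute depth, a missing peak means not listed at this depth, run and list threshold. Some missing peaks were held by other lists of the same library, such as the Neurod6 promoter peak in replicate 1.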
